A study of Mus musculus with 2 samples.

Results

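Inmt, Upk1b, Sod3, Spon2 and C1qtnf3 are 5 of the 29004 genes and other features counted in these libraries. They were chosen by their values: each was selected for a higher level in the matrix fibroblasts of lungs given the Hedgehog-blocking antibody 5E1 than in those given control IgG. Their levels in matrix fibroblasts are therefore given as a description, without a test. Whole-lung cells came from mouse pups carrying Gli1CreERT2/+ and R26RtdT/+, alleles in which a tamoxifen-activated Cre under Gli1 control switches on the red reporter tdTomato. All pups, the controls included, had tamoxifen at postnatal day 1, an antibody (5E1 or IgG) under the skin at day 3, and lung collection at day 6. Lungs of 3 pups per condition were pooled before about 20000 cells per condition were loaded for droplet sequencing, so each condition is 1 library and a difference between the libraries has no replicate check. Intervals below are exact 95% intervals that cover counting error only.

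Hedgehog ligands, made by the lung epithelium, bind the receptor Patched on neighbouring mesenchymal cells, which releases Smoothened and activates the Gli transcription factors. Gli1, Ptch1 and Hhip are direct targets, and 5E1 is an antibody that binds the ligands and keeps them from Patched. Matrix fibroblasts are the interstitial fibroblasts of the alveolar wall, marked by Tcf21 and Npnt, and lie beside the contractile alveolar myofibroblasts that build the septa after birth. Inmt encodes indolethylamine N-methyltransferase, an enzyme that methylates tryptamine and related amines and is abundant in lung. Upk1b encodes uroplakin 1B, a tetraspanin known from the urothelial surface that also marks mesothelium. Sod3 encodes the secreted superoxide dismutase of the extracellular matrix. Spon2 encodes spondin 2, also called mindin, a secreted matrix protein with a thrombospondin repeat, and C1qtnf3 encodes a secreted protein of the C1q and TNF related family.

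In the mouse genome build mm10 (GRCm38), the GENCODE annotation places Inmt at chr6:55170626-55175043 on the minus strand and Upk1b at chr16:38773184-38800328 on the minus strand. Sod3 lies at chr5:52363791-52371418 on the plus strand, and Spon2 on the same chromosome at chr5:33198184-33218455 on the minus strand. C1qtnf3 lies at chr15:10952332-10980150 on the plus strand. None of the 5 overlaps another annotated gene (0 for each). A RefSeq promoter (build GRCm38.p6) was at hand for 2 of the 5, Inmt and C1qtnf3, and not for Upk1b, Sod3 and Spon2. The bases before the annotated starts of these genes, which were higher together in matrix fibroblasts, are shown to let the start regions be compared. They run 5′ to 3′ on the gene's strand, and capitals mark the letters TATAAA. The Inmt stretch of 197 bases is chr6:55175044-55175240 (minus strand), upstream of both the RefSeq and the GENCODE start, and that of C1qtnf3 is the 250 bases at chr15:10952082-10952331 (plus strand).
Inmt: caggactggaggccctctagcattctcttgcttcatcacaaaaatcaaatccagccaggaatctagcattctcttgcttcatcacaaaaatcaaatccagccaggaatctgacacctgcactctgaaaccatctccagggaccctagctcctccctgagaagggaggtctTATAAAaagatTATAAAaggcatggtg
C1qtnf3: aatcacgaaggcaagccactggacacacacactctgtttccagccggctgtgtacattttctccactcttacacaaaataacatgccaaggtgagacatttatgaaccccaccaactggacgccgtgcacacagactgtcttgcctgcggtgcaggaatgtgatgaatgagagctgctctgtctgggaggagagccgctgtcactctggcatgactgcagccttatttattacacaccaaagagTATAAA

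Inmt's window held TATAAA 2 times, starting 80 and 69 bases before the RefSeq start, and C1qtnf3's held it 1 time, 6 bases before it. For Inmt the GENCODE start (base 55175043) lies upstream of the RefSeq start (base 55174990). Both copies are therefore closer to the GENCODE start, which directly follows the printed stretch. Of 32851 RefSeq promoters, 12.4% had TATAAA on either strand in the same 250 bases. The printed Inmt stretch also carried a direct repeat of 46 identical bases, the second copy 46 bases after the first, and it had 0 CpG against 6 CpG in the C1qtnf3 stretch. Neither 250-base window held, on either strand, the Gli motif GACCACCCA (0.225% of promoters), its 8-base part ACCACCCA (1.28%), the AP-1 motif TGACTCA (4.46%), the E-box CACGTG (6.02%), the CRE TGACGTCA (1.55%) or the GC box GGGCGG (32.7%). ACCACCCA lies within GACCACCCA, so those matches overlap. A missing match says only that these letters are not in these windows.

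The authors kept 13509 cells of the IgG library and 9454 of the 5E1 library, with 77436890 and 58890639 unique molecular identifiers (UMIs, 1 per captured RNA molecule), and assigned them to 23 numbered clusters. Levels are given as CPM, a gene's UMIs scaled to the total UMIs of the same cells. Clusters 19 and 20 had matrix fibroblast markers among their leading genes, and Tcf21 in cluster 19 was 923 CPM with IgG and 1173 with 5E1, against 37.9 and 15.8 in the B cell-like cluster 4. Cluster 14, of low UMI content (medians of 2210.5 and 1911 per cell), had Tcf21 at 1022 and 962 CPM but only 1 such leading marker, Enpep, and is called by its number. Clusters 14, 19 and 20 held 256, 1854 and 196 IgG cells and 67, 551 and 414 5E1 cells. Inmt is among the 10 leading genes of cluster 20, Upk1b of mesothelial-like cluster 17, C1qtnf3 of adventitial fibroblast-like cluster 18 and Spon2 of myofibroblast-like cluster 21, so those levels helped to form or describe the clusters. Cluster names are rebuilt here from marker lists. The libraries shared 184 barcodes among kept cells, whose part in the results was not tested.

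The libraries differed in sex. In cluster 19, 1808 of 1854 IgG cells had Xist UMIs and no Y-linked UMI and 1 had a Y-linked UMI, whereas of 551 5E1 cells 230 had Xist alone and 145 a Y-linked UMI. Antibody, sex and pup cannot be told apart for the 5E1 cells with Y-linked UMIs. For the 5E1 cells with Xist alone, antibody and pup cannot be told apart, since they too come from other pups than the IgG cells. Values for both kinds of 5E1 cells are given below. As a check of the treatment label, the 3 Hedgehog targets examined were lower in clusters 14, 19 and 20 of the 5E1 library: Hhip, whose product binds the ligands, was at 222 CPM with IgG and 11.3 with 5E1, and Ptch1 at 101 and 18.8. Gli1 had 124 UMIs with IgG and 4 with 5E1.

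Over clusters 14, 19 and 20 together, Inmt was at 139.5 CPM (95% interval 133 to 147; 1527 UMIs) with IgG and 615 CPM (593 to 638; 2950 UMIs) with 5E1, a ratio of 4.41 (4.14 to 4.69). This pooled ratio was above that of each of the 3 clusters and also moves with how many cells each held; cluster 20, where Inmt was highest, had 196 IgG cells and 414 5E1 cells. With the 3 clusters weighted alike it was 2.52, and with the 5E1 clusters weighted by the UMIs of the IgG clusters 3.34. Upk1b was at 30.3 CPM (332 UMIs) and 121 CPM (579 UMIs), a ratio of 3.98 (3.47 to 4.57). This pooled ratio, too, was above that of each of the 3 clusters. It was 3.27 with the 3 clusters weighted alike and 3.31 with the 5E1 clusters weighted by the UMIs of the IgG clusters. Sod3 was at 93.4 CPM (1022 UMIs) and 312 CPM (1495 UMIs), a ratio of 3.34 (3.08 to 3.62). In each of these the counting intervals of the libraries were far apart. Spon2 was at 97.7 CPM (1069 UMIs) and 288 CPM (1381 UMIs), a ratio of 2.95 (2.72 to 3.20). C1qtnf3, the least counted of the 5, was at 19.3 CPM (211 UMIs) and 65.9 CPM (316 UMIs), a ratio of 3.42 (2.86 to 4.09).

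All 5 thus passed a 2-fold difference, where 336 of 12439 genes with at least 20 UMIs (2.7%) were at least 2-fold higher in 5E1; since these genes were picked on this contrast, their count is a description. The median log2 ratio of all 12439 genes was -0.04. Among 2931 genes with at least 200 UMIs and 50 CPM in a library, Inmt ranked 3rd by pooled ratio, Upk1b 4th, C1qtnf3 8th, Sod3 10th and Spon2 13th. The other genes of the top 10 were Camp and Ngp, granule genes of neutrophils, ranked 1st and 2nd with ratios of 4.73 and 4.57, the ADAMTS-like matrix protein gene Adamtsl2 (3.96), the small proteoglycan gene Aspn (3.85), the transcription factor gene Cebpd (3.76) and the thioredoxin-binding protein gene Txnip (3.42). Aspn, at 65.1 CPM with IgG and 250 with 5E1, is a leading gene of myofibroblast-like cluster 21. Camp and Ngp, at 11.7 and 12.2 CPM with IgG and 55.3 and 55.5 with 5E1, lead the neutrophil-rich cluster 1. The summed level of the 8 neutrophil markers was 562 CPM with IgG and 842 with 5E1 in cluster 19, and 582 and 234 in cluster 20; whether it has a part in the levels of the 5 genes was not tested.

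**Figure D1:**
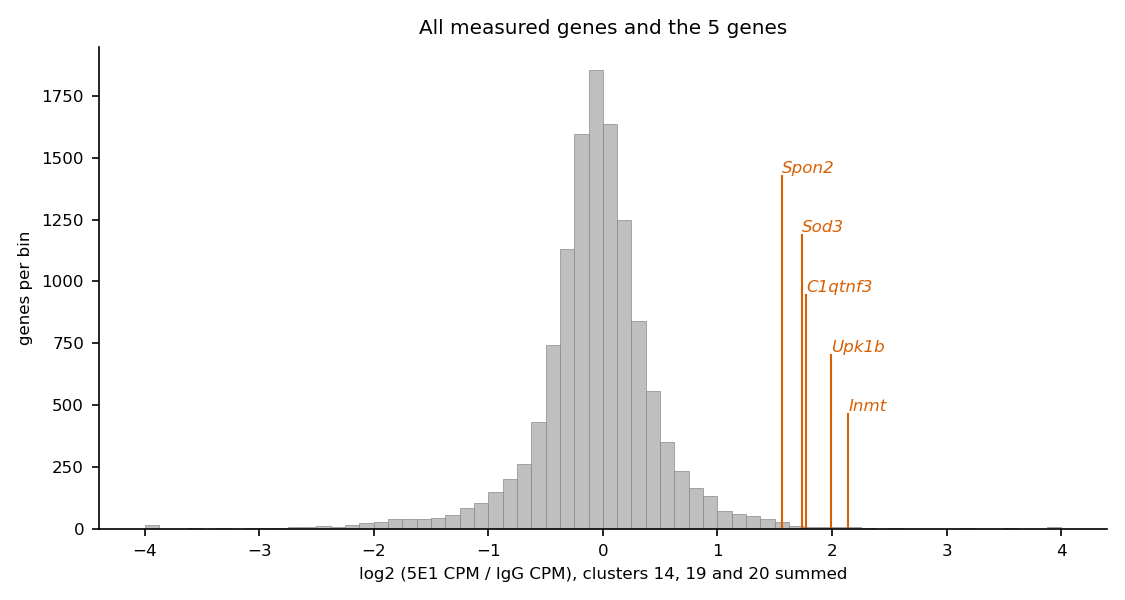
Number of genes (y axis, per bin) by log2 ratio of 5E1 CPM over IgG CPM in clusters 14, 19 and 20 summed (x axis), for the 12439 genes with at least 20 UMIs, with ratios beyond 4 or -4 drawn in the end bins. Orange lines mark the 5 genes, which were picked on this contrast and lie between 1.56 (Spon2) and 2.14 (Inmt).

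In cluster 19, the largest of the 3, Inmt was at 118 CPM with IgG and 436 with 5E1, a ratio of 3.70 (3.40 to 4.03). C1qtnf3 was at 18.1 and 68.8 CPM (ratio 3.81, 3.06 to 4.74), Sod3 at 92.4 and 313 CPM (3.39, 3.07 to 3.74), Upk1b at 28.5 and 95.6 CPM (3.36, 2.80 to 4.02) and Spon2 at 94.6 and 283 CPM (3.00, 2.71 to 3.31). All 5 genes were past 2-fold here, as were 2.67% of 11929 genes. In cluster 20, where 3.43% of 9336 genes were past 2-fold, all 5 again were: Upk1b was at 50.5 and 152 CPM (3.01, 2.26 to 4.07), Inmt at 291 and 844 CPM (2.90, 2.57 to 3.27), Sod3 at 111 and 319 CPM (2.88, 2.37 to 3.52), Spon2 at 133 and 304 CPM (2.28, 1.90 to 2.74) and C1qtnf3 at 29.8 and 65.7 CPM (2.21, 1.504 to 3.33). The ratio in cluster 19 exceeded that in cluster 20 by 1.28-fold for Inmt (interval 1.10 to 1.47), 1.32-fold for Spon2 (1.07 to 1.61) and 1.72-fold for C1qtnf3 (1.12 to 2.66), while for Upk1b and Sod3 the interval of that quotient held 1.

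Cluster 14 did not follow clusters 19 and 20 in every gene. Inmt was at 192 CPM with IgG (159 to 230) and 237 with 5E1 (165 to 330), a ratio of 1.24 whose interval, 0.821 to 1.82, held 1. Upk1b there was at 21.7 and 81.3 CPM (3.75, 1.56 to 8.91) on 13 and 12 UMIs, Sod3 at 76.8 and 183 CPM (2.38, 1.42 to 3.91), and Spon2 at 78.5 and 135.5 CPM (1.73, 0.969 to 2.97). C1qtnf3 had 11 and 3 UMIs, under the 20 needed for a ratio. Thus 2 of the 4 genes with at least 20 UMIs passed 2-fold in cluster 14, where 6.56% of 5382 genes did. The 67 cells of this cluster in the 5E1 library had a summed level of 39362 CPM of the 6 erythroid markers against 472 CPM with IgG, and the part of this in the values was not tested.

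Inmt also differed between the clusters within each library, and its order changed. With IgG the order was cluster 20, cluster 14, cluster 19 and, at 31.1 CPM, adventitial fibroblast-like cluster 18; the counting intervals of these neighbours did not overlap. With 5E1 cluster 19 stood above cluster 14, whose level was 0.544 times that of cluster 19 (0.377 to 0.761) against 1.63 times with IgG (1.33 to 1.97). Cluster 20 was 2.47-fold above cluster 19 with IgG (2.17 to 2.80) and 1.94-fold with 5E1 (1.80 to 2.09). Outside clusters 14, 19 and 20, Inmt in all other clusters together was at 5.93 CPM with IgG and 6.49 with 5E1, a ratio of 1.10 (0.946 to 1.27). Of the 10 other clusters with at least 20 UMIs, the interval was above 1 in 5 and below 1 in 2. Those above were low in level: alveolar macrophage-like cluster 5 (0.725 and 5.81 CPM), interstitial macrophage-like cluster 8 (3.05 and 9.54), AT2-like cluster 9 (1.80 and 5.56), endothelial-like cluster 11 (5.36 and 8.57) and cluster 2 (0 and 23 UMIs). Below were cluster 10 (4.51 and 1.98 CPM) and cluster 18. In cluster 18 it went the other way, 31.1 CPM (26.3 to 36.5) with IgG and 15.3 CPM (11.1 to 20.5) with 5E1, a ratio of 0.490 (0.342 to 0.691). There the 5E1 cells with Xist alone were at 5.53 CPM on 6 UMIs (ratio to IgG 0.178, 0.064 to 0.396) and those with a Y-linked UMI at 22.7 CPM (0.730, 0.449 to 1.14), an interval that held 1. Clusters 14, 19 and 20 held 79.5% of all Inmt UMIs of kept cells with IgG and 89.4% with 5E1, shares that also move with the numbers of cells.

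**Figure D2:**
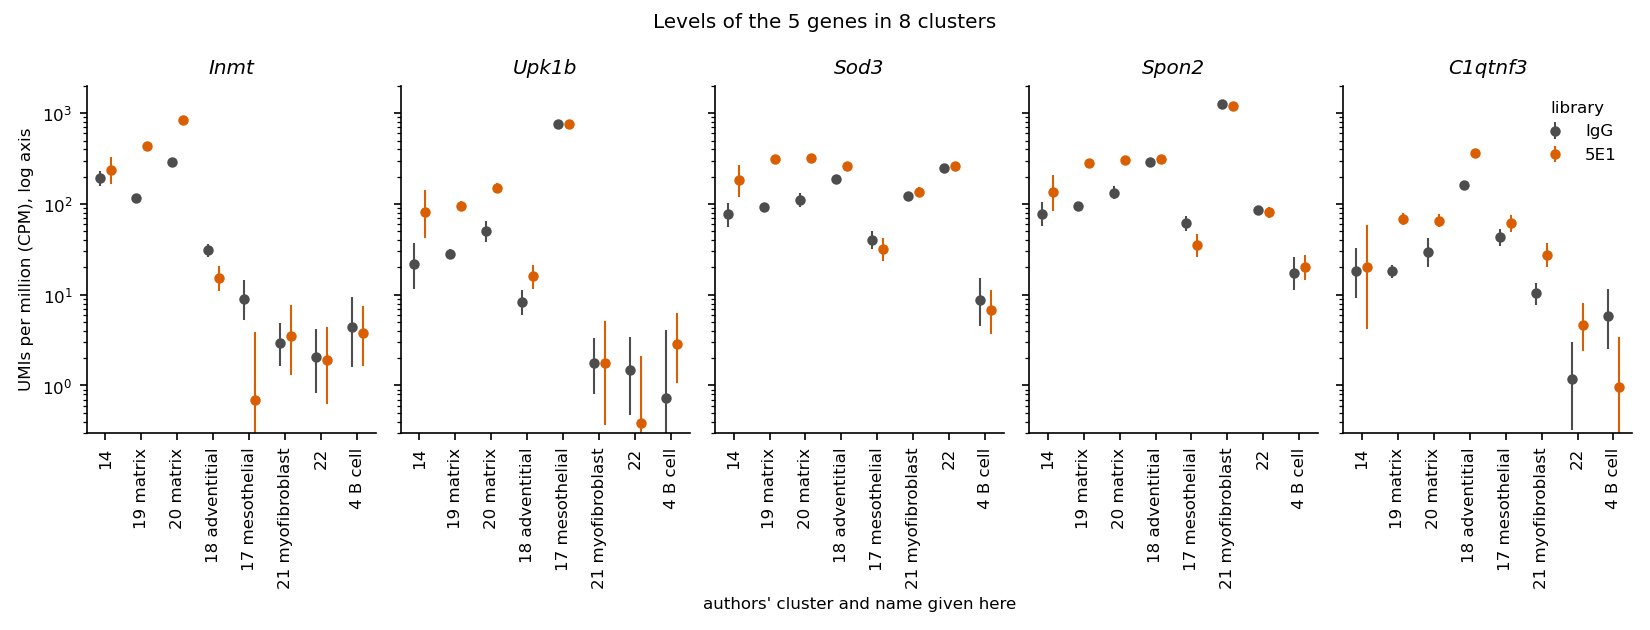
CPM (log axis) of each of the 5 genes in 8 clusters, IgG grey and 5E1 orange, with exact 95% counting intervals cut at the axis end. The orange points of clusters 19 and 20 lie above the grey ones in all 5 panels, while Upk1b in mesothelial-like cluster 17 (761 and 759 CPM) and Spon2 in myofibroblast-like cluster 21 (1262 and 1204 CPM) nearly coincide.

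Upk1b was by far highest in mesothelial-like cluster 17, the layer that covers the lung, at 761 CPM (722 to 802) with IgG and 759 CPM (714 to 805) with 5E1. The ratio there was 0.997 (0.920 to 1.08), and the ratio in clusters 14, 19 and 20 was 3.99-fold larger (3.42 to 4.67). Next in order came cluster 20, then clusters 19 and 14, whose intervals overlapped in both libraries, then cluster 18 at 8.35 and 16.0 CPM. Upk1b was also higher with 5E1 in cluster 18 (ratio 1.91, 1.22 to 2.99), on 40 and 46 UMIs in 16 and 11 cells. In endothelial-like cluster 11 it was at 1.91 and 3.39 CPM (1.77, 1.01 to 3.20). Of the 6 other clusters with at least 20 UMIs, the interval was above 1 in these 2 and held 1 in 4. Of the 6 mesothelial genes looked at singly, Muc16 had 0 UMIs in clusters 14 and 19 of both libraries and 2 in cluster 20 of each. Wt1 had 3 and 2 UMIs in cluster 19 (0.325 and 0.810 CPM) against 210.5 and 242 CPM in cluster 17, and Lrrn4 4 and 1 UMIs. Upk3b, the partner uroplakin of mesothelium, was at 2.49 CPM with IgG and 6.07 with 5E1 in cluster 19, against 1843 and 2058 in cluster 17. Msln was at 5.20 CPM with IgG (48 UMIs) and 13.4 with 5E1 (33 UMIs) in cluster 19 and 7.21 and 4.59 in cluster 20, against 11.7 and 29.7 in B cell-like cluster 4 and 4398 and 3685 in cluster 17. Krt19 was at 8.01 and 10.5 CPM in cluster 19 and 6.68 and 27.1 in cluster 14 (4 UMIs each). The 15 mesothelial markers summed to 226 CPM with IgG and 276 with 5E1 in cluster 19, 298 and 276 in cluster 20, and 160 and 244 in cluster 14. This list also holds Rspo1 and Igfbp6, which were higher with 5E1 over clusters 14, 19 and 20. Rspo1 was at 2.74 and 31.9 CPM (ratio 11.6, 7.83 to 17.8) and Igfbp6 at 18.3 and 55.5 CPM (3.04, 2.52 to 3.67). The remaining markers of the list were not looked at singly. Without the cells that held UMIs of 2 mesothelial markers, Upk1b in clusters 14, 19 and 20 was 3.93-fold higher in 5E1 (3.37 to 4.58).

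In mesothelial-like cluster 17, 0 of the 4 genes with at least 20 UMIs passed 2-fold, where 2.19% of 9727 genes did. That count is near the share of all genes and does not set the 4 apart. Sod3 there was at 40.4 and 32.0 CPM (ratio 0.791, 0.536 to 1.16), Spon2 at 61.1 and 35.4 CPM (0.580, 0.408 to 0.813) and C1qtnf3 at 43.1 and 61.8 CPM (1.44, 1.05 to 1.97). Of the 89 C1qtnf3 UMIs with 5E1, 43 came from 1 cell. Inmt had 17 and 1 UMIs.

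Sod3 was spread over the mesenchyme. With IgG it was highest in cluster 22, led by Wisp2 and Lmod1, at 247 CPM (231 to 264), then in smooth muscle-like cluster 16 at 191 (170 to 215) and cluster 18 at 189 (177 to 202), which overlapped, with cluster 21 at 121 and clusters 20 and 19 at 111 and 92.4. With 5E1 clusters 20 and 19 stood first at 319 and 313 CPM, with clusters 16, 22 and 18 at 275, 261 and 260, and neighbours in this order overlapped. Cluster 18 was thus 2.05-fold above cluster 19 with IgG (1.87 to 2.25) and 0.832 times it with 5E1 (0.752 to 0.921). Sod3 was also somewhat higher with 5E1 in cluster 18 (ratio 1.38, 1.25 to 1.52) and cluster 16 (1.44, 1.15 to 1.78), whereas the interval held 1 in 14 of the 16 other clusters with at least 20 UMIs.

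Spon2 had its main site outside the matrix fibroblasts, in the alveolar myofibroblast-like cluster 21, at 1262 CPM (1231 to 1293) with IgG and 1204 CPM (1153 to 1258) with 5E1 (ratio 0.954, 0.908 to 1.003). With IgG it stood at 572 CPM in myofibroblast-like cluster 23, 498 in cluster 12, led by Htra1 and cell cycle genes, 440 in cluster 16, 325 in pericyte-like cluster 13, 290 in cluster 18, and 133 and 94.6 in clusters 20 and 19. With 5E1 the same clusters stood at 426 CPM in cluster 23, 390 in cluster 13, 314 in cluster 18, 312 in cluster 12, 306 in cluster 16, 304 in cluster 20 and 283 in cluster 19, and from cluster 18 down neighbours overlapped. Spon2 was lower with 5E1, its interval below 1, in 11 of the 20 other clusters, and higher, its interval above 1, in cluster 13 alone (1.20, 1.08 to 1.34). Among the 11 were cluster 12 (ratio 0.626, 0.569 to 0.688), cluster 16 (0.695, 0.574 to 0.837), cluster 23 (0.745, 0.695 to 0.799) and cluster 17. The rest, clusters 2, 5, 6, 7, 9, 10 and 15, were low in level, from 15.7 CPM (cluster 15) to 27.3 CPM (cluster 6) with IgG. B cell-like cluster 4, which shows the level to expect from free RNA, was at 17.5 and 20.1 CPM, so a fall in these clusters cannot be told from a change in free RNA. Over all kept cells it was at 210.0 CPM with IgG and 134 with 5E1, a ratio of 0.640 (0.623 to 0.657) that also moves with the numbers of cells per cluster. Clusters 14, 19 and 20 held 6.57% of Spon2 UMIs with IgG and 17.4% with 5E1.

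C1qtnf3 was highest in adventitial fibroblast-like cluster 18, the fibroblasts around airways and large vessels, and was higher there too with 5E1, at 164 CPM (152 to 175) with IgG and 362 (340 to 385) with 5E1, a ratio of 2.21 (2.02 to 2.43). It was the 1 gene of the 5 past 2-fold in cluster 18, where 1.44% of 11518 genes were. With only the 5E1 cells that had Xist alone the ratio in cluster 18 was 1.63 (1.42 to 1.87), under 2-fold, and with those that had a Y-linked UMI 2.36 (2.09 to 2.67). The ratio in clusters 14, 19 and 20 was 1.54-fold that in cluster 18 (1.27 to 1.88). It was also higher in cluster 21, at 10.3 and 27.7 CPM (ratio 2.68, 1.77 to 4.04), on 53 and 47 UMIs. With IgG cluster 17 followed cluster 18 at 43.1 CPM, then cluster 20 at 29.8 and clusters 14 and 19 at 18.4 and 18.1 CPM, and neighbours from cluster 17 down overlapped. With 5E1 clusters 19, 20 and 17 came next at 68.8, 65.7 and 61.8 CPM, overlapping one another.

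**Figure D3:**
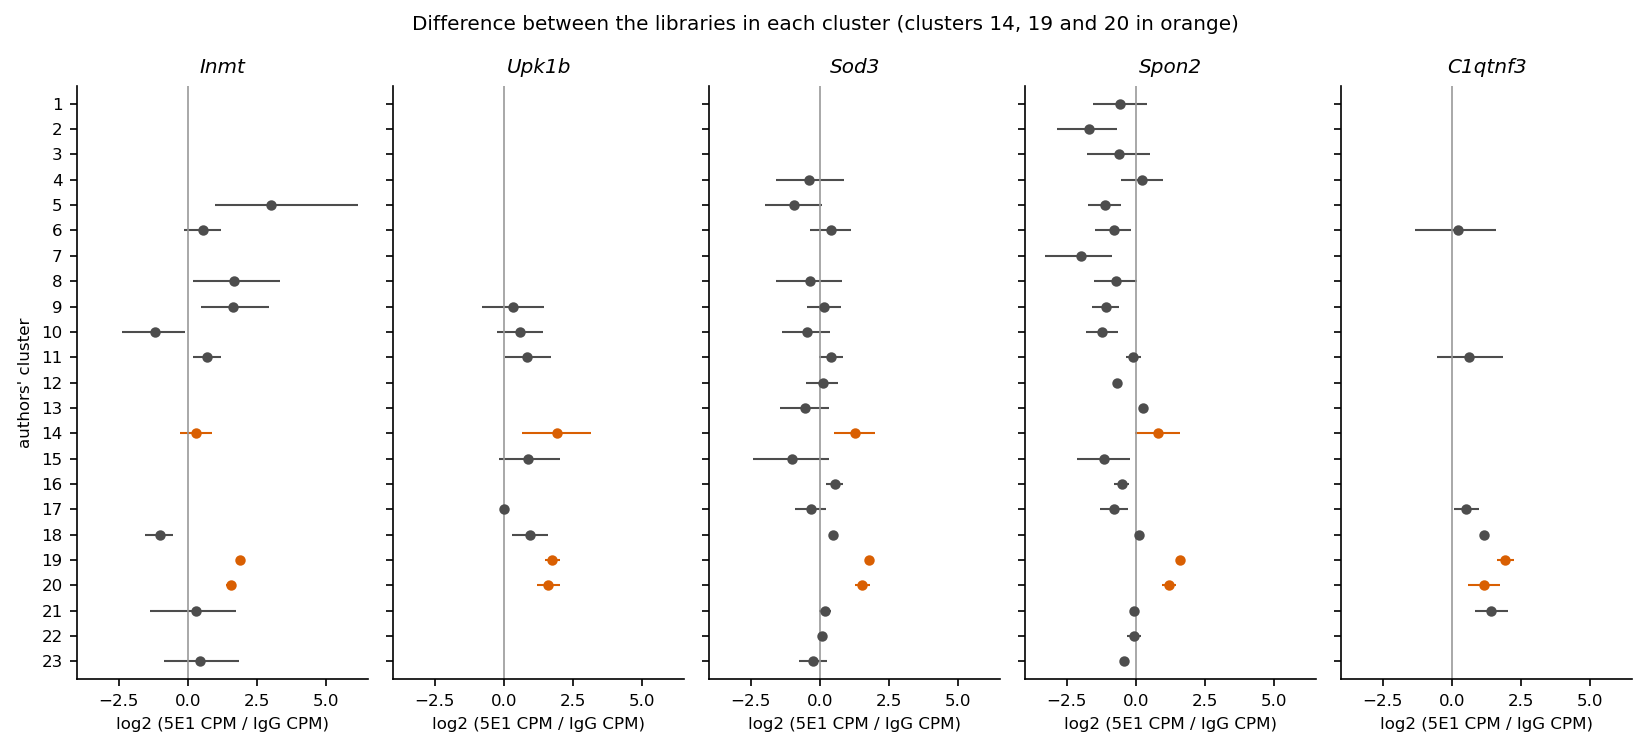
log2 ratio of 5E1 CPM over IgG CPM (x axis) in each of the authors' 23 clusters (y axis) with 95% counting intervals, for clusters with at least 20 UMIs of the gene in both libraries together; Inmt in cluster 2 (0 and 23 UMIs) has no finite ratio and is not drawn. Clusters 14, 19 and 20 are orange; Spon2 lies left of 0 in most other clusters and Inmt in cluster 18 lies left of 0.

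Droplet libraries carry free RNA, so a gene's UMIs in the B cell-like cluster 4 show the level to expect in cells that lack it. There Inmt was at 4.37 and 3.83 CPM, Upk1b at 0.729 and 2.88, Sod3 at 8.75 and 6.71, Spon2 at 17.5 and 20.1, and C1qtnf3 at 5.83 and 0.959 CPM. Each of the 5 was above these levels in clusters 19 and 20 of both libraries, C1qtnf3 with IgG the least so. After every cell was thinned to 1000 UMIs, the share of cluster 19 cells with an Inmt UMI was 7.14% (6.004 to 8.40; 1850 cells) with IgG and 25.6% (21.9 to 29.4; 544 cells) with 5E1, and in cluster 20 16.3% and 32.8%. In cluster 4 it was 0.533% (of 375 cells) and 0.235% (of 426). Thinning left out 4 and 7 cells of cluster 19. Median depths before thinning were 4622.5 and 4236 UMIs in cluster 19 and 2498.5 and 3325 in cluster 4, and the unthinned Inmt shares of cluster 19 were 16.6% and 40.1%.

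In clusters 19 and 20, both the share of cells and the UMIs per positive cell were higher for Inmt. Cells of cluster 19 with an Inmt UMI held a mean of 3.55 with IgG and 4.87 with 5E1, and those of cluster 20 held 5.38 and 8.55, with up to 68 in 1 cell. In cluster 14 the thinned share was 11.4% with IgG (7.73 to 16.1; 245 cells) and 7.94% with 5E1 (2.63 to 17.6; 5 of 63 cells), and these intervals overlapped. Unthinned, the shares there lay the other way, at 14.1% and 22.4%. Positive cells of cluster 14 held a mean of 3.19 and 2.33 UMIs. The thinned shares of cluster 19 for Sod3 were 8.86% and 24.8%, for Spon2 7.84% and 21.5%, for Upk1b 2.38% and 8.46%, and for C1qtnf3 1.46% and 4.96%. The matching shares in cluster 4 were 0.533% and 0.235% for Sod3, 1.07% and 1.64% for Spon2, 0.533% and 0.235% for C1qtnf3, and 0 of 375 and 0 of 426 cells for Upk1b, which allows shares of cells with a UMI of up to 0.800% and 0.704% (3 cells of the total). Unthinned, 29.9% and 64.1% of cluster 19 cells had a Sod3 UMI and 28.5% and 52.1% a Spon2 UMI. Cells with several of the genes are given as a description, since their share moves with the shares of the single genes: at 1000 UMIs, 3.57% of cluster 19 cells with IgG and 19.9% with 5E1 had UMIs of at least 2 of the 5, and in cluster 20 6.63% and 28.2%. Without thinning, 60.3% and 91.8% of cluster 19 cells had a UMI of at least 1 of the 5.

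**Figure D4:**
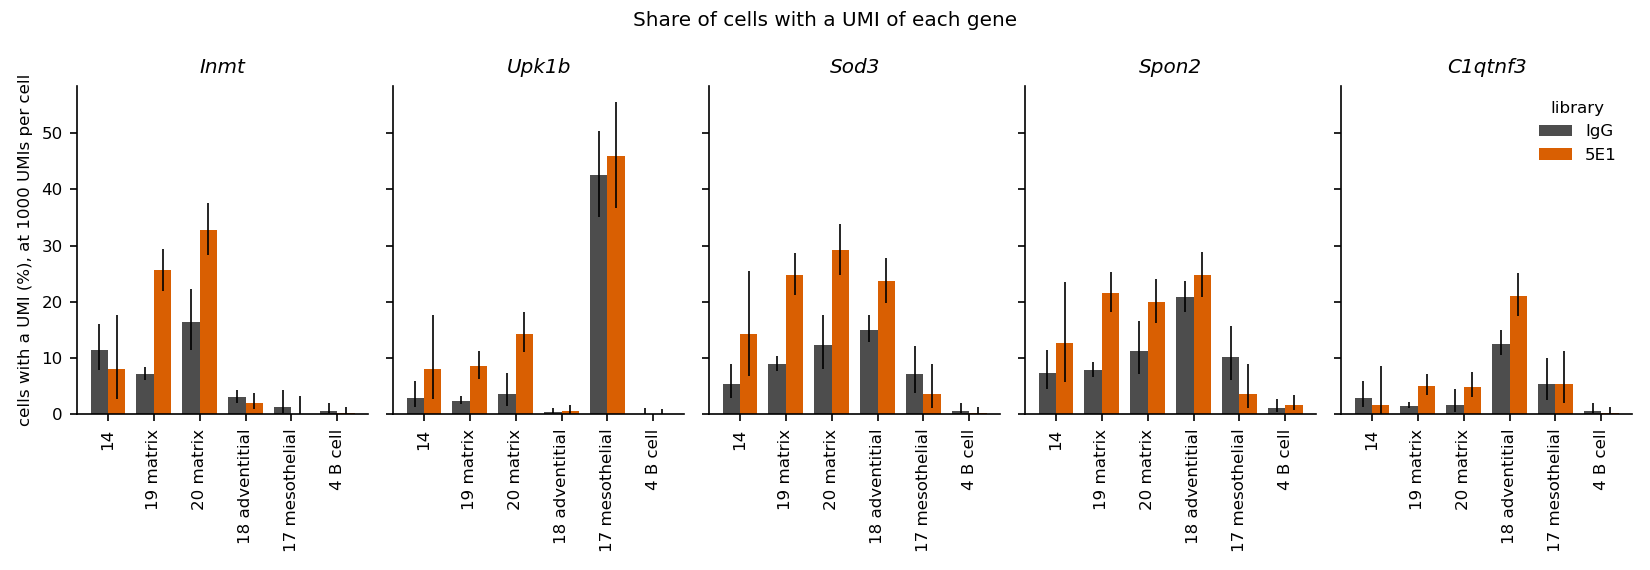
Share of cells (%, y axis from 0) with a UMI of each gene after thinning every cell to 1000 UMIs, in 6 clusters, IgG grey and 5E1 orange, with exact (Clopper-Pearson) 95% intervals. In clusters 19 and 20 the orange bars stand above the grey ones for all 5 genes, and the bars of B cell-like cluster 4 are at most 1.64%.

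Divided by sex marks, 5E1 cells of both kinds were above the IgG cells, but not alike. In cluster 19, Inmt was at 270.2 CPM (241 to 303; 230 cells) in 5E1 cells with Xist alone and at 558 CPM (505 to 616; 145 cells) in those with a Y-linked UMI, a 2.07-fold difference within the library (1.77 to 2.41), against 118 CPM in the IgG cells. In cluster 20 the values were 526 and 873 CPM, a 1.66-fold difference (1.46 to 1.89), against 291 with IgG. Upk1b was likewise higher in the cells with Y-linked UMIs, 69.4 against 120 CPM in cluster 19 (1.74-fold, 1.26 to 2.40) and 110 against 174 CPM in cluster 20 (1.59-fold, 1.20 to 2.13). Spon2 differed less, 1.35-fold (1.13 to 1.62) in cluster 19 and 1.38-fold (1.13 to 1.70) in cluster 20, and Sod3 1.16-fold with an interval that held 1 in cluster 19 (0.968 to 1.39) and 1.32-fold (1.09 to 1.62) in cluster 20. C1qtnf3 was at 74.8 and 62.4 CPM in cluster 19 and 76.0 and 52.2 in cluster 20, with intervals of the quotient that held 1. Compared with IgG using only the 5E1 cells with Xist alone, the ratios over clusters 14, 19 and 20 were 2.60 for Inmt (2.37 to 2.84), 2.75 for Upk1b (2.25 to 3.34), 2.74 for Sod3 (2.45 to 3.05), 2.37 for Spon2 (2.11 to 2.65) and 3.84 for C1qtnf3 (3.07 to 4.79). For Inmt this is over 1.5 times smaller than the 4.41 of all cells. The 2.60 for Inmt lay above the ratios of the same cells in cluster 19 (2.29, 2.01 to 2.61) and cluster 20 (1.81, 1.55 to 2.11). Spon2 in cluster 20 had a ratio of 1.70 (1.35 to 2.14) with these cells. Inmt and Spon2 were thus under 2-fold in cluster 20 with them, while Upk1b (2.17), Sod3 (2.19) and C1qtnf3 (2.56) were above it.

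**Figure D5:**
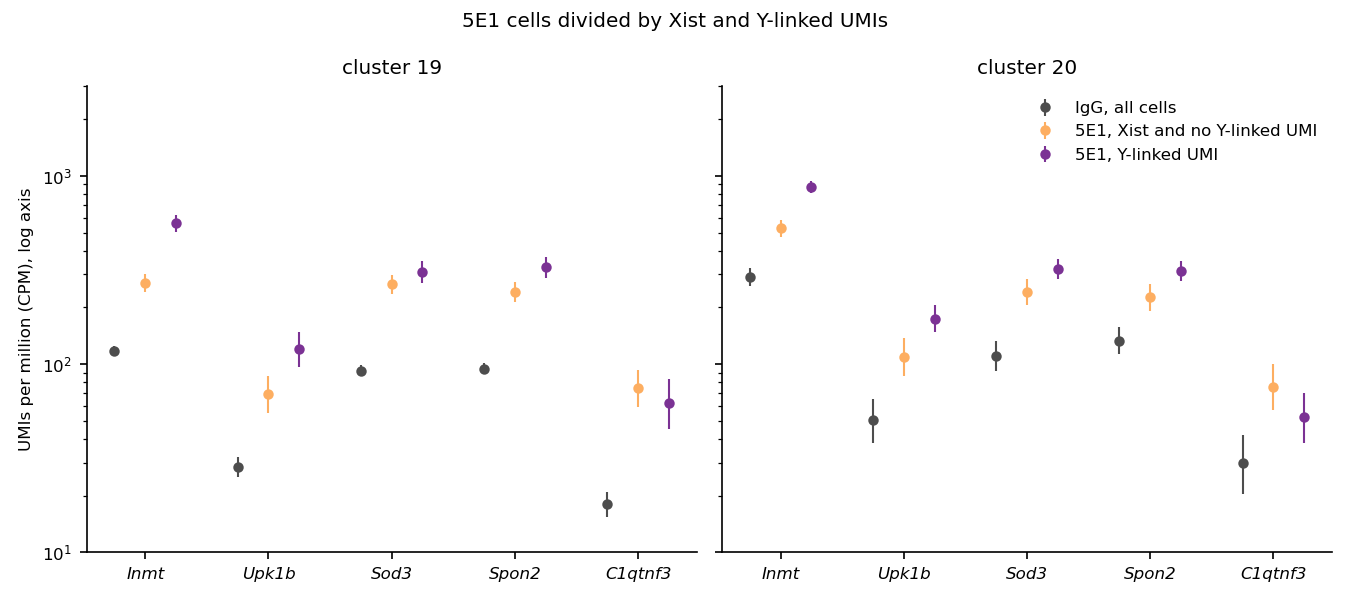
CPM (log axis) of the 5 genes in clusters 19 and 20 for all IgG cells (grey), 5E1 cells with Xist and no Y-linked UMI (orange) and 5E1 cells with a Y-linked UMI (purple), with 95% counting intervals. Both kinds of 5E1 cells lie above IgG; Inmt in cluster 19 is at 118, 270.2 and 558 CPM.

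The families of the 5 genes were looked at through gene lists in clusters 14, 19 and 20. The counts and medians below include the gene of the 5 itself, which was picked for being higher. Without it, 2 of 6 methyltransferases (median log2 ratio -0.50) and 6 of 21 antioxidant enzymes (-0.18) were higher with 5E1. So were 10 of 10 C1q and TNF family genes (0.66), 17 of 22 genes with thrombospondin repeats (0.34) and 17 of 25 tetraspanins and uroplakins (0.14). Beside the counts below, 43.3% of all 12439 genes were higher in CPM with 5E1, and the counting interval lay above 1 for 13.6% and below 1 for 18.9%. Of 7 small molecule methyltransferases, 3 were higher and 4 lower with 5E1, with a median log2 ratio of -0.37; the interval lay above 1 for 2 and below 1 for 4. Besides Inmt, the highest were Mettl7a1 (61.9 and 116 CPM, ratio 1.87) and Hnmt (35 and 20 UMIs, 1.30, 0.714 to 2.32), which methylates histamine. Gamt, Tpmt and Nnmt were lower, by 1.89-fold, 1.78-fold and 1.57-fold. Of the 22 antioxidant enzymes, 7 were higher and 15 lower, median -0.16, with the interval above 1 for 5 and below 1 for 10. After Sod3 came the secreted glutathione peroxidase gene Gpx3, at 407 and 804 CPM (1.98, 1.89 to 2.06), and Gclm (1.22). Hmox1, Prdx5 and Prdx4 were the lowest, at 1.95-fold, 1.45-fold and 1.33-fold below IgG, and the cytosolic and mitochondrial dismutases Sod1 and Sod2 had ratios of 0.829 and 1.04.

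In the C1q and TNF family all 11 genes measured had a ratio above 1, median log2 ratio 0.81, but the interval lay above 1 for 6 and held 1 for 5. After C1qtnf3 the highest were Col8a2 (42 and 52 UMIs, ratio 2.83, 1.85 to 4.35) and Emilin2 (17 and 19 UMIs, 2.55), and the lowest C1qtnf6 (1.01), C1qtnf2 (1.04) and Emilin1 (1.18). Without C1qtnf3 the median was 0.66. In cluster 20, 6 of 8 were higher with C1qtnf3 counted, median 0.30, and 5 of 7 without it, median 0.28. Of 23 genes with thrombospondin repeats, 18 had a ratio above 1 and 5 below, median 0.35, with the interval above 1 for 14 and below 1 for 2. Rspo1, a secreted Wnt agonist, was at 2.74 CPM with IgG (30 UMIs) and 31.9 with 5E1 (153 UMIs), a ratio of 11.6 (7.83 to 17.8), and is, like Upk1b, among the 10 leading genes of mesothelial-like cluster 17. It was followed by Adamtsl2 (3.96) and the matricellular gene Ctgf (3.27). Rspo2, of the same gene group as Rspo1, went the other way, at 16.0 and 4.59 CPM, 3.48-fold lower. Adamtsl1 was 2.92-fold lower (6 UMIs with 5E1) and Adamts15 1.15-fold lower, the latter with an interval that held 1. Of 26 tetraspanins and uroplakins, 18 had a ratio above 1 and 8 below, median 0.16, but the interval held 1 for 17, lay above 1 for 8 and below 1 for 1. After Upk1b stood Upk3b (24 and 20 UMIs, ratio 1.90, 0.997 to 3.59) and Tspan2 (1.48). The lowest were Tspan1 (22 and 4 UMIs), Cd37 and Tspan11, at 2.41-fold, 1.41-fold and 1.23-fold below IgG. The interval held 1 for Upk3b, Tspan2, Tspan1, Cd37 and Tspan11.

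Genes known from adult alveolar fibroblasts were mostly higher: 16 of 19 were higher and 3 lower with 5E1, median log2 ratio 0.49, and no interval held 1 (0 of 19). This list was written with earlier results of these libraries known and is not independent evidence of a direction. The flavin monooxygenase gene Fmo2 was at 136 and 375 CPM (2.76, 2.58 to 2.96), Scube2 at 81.2 and 208 CPM (2.56), and the carboxylesterase gene Ces1d at 95.02 and 235 CPM (2.48). Enpep, Gpc3 and Figf were lower, by 1.93-fold, 1.57-fold and 1.51-fold. Immediate early genes, which respond to handling of cells as well as to signals, had a ratio above 1 for 18 of 19, median 0.67, with the interval above 1 for 17, with Fos (2.24), Dusp1 (2.11) and Atf3 (2.01) the highest and Nr4a2 (0.976), Nr4a1 (1.13) and Klf2 (1.15) the lowest. The summed level of this list was 3436 CPM with IgG and 5854 with 5E1 in cluster 19, and 8335 and 7480 in cluster 20, where 6 of 18 had a ratio above 1 and 12 below; its part in the levels of the 5 genes was not tested. Of the other cell types, the 8 interstitial macrophage markers summed to 568 and 1080 CPM in cluster 19 and 692 and 1537 in cluster 20, the 11 AT2 cell markers to 892 and 645 and to 2673 and 557, the 7 club cell markers to 2714 and 1834 and to 4968 and 1770, the 20 endothelial markers to 460.0 and 731 and to 390.4 and 579, the 11 dendritic cell markers to 212 and 48.2 and to 123 and 410.2, and the 6 erythroid markers to 1221 and 1575 and to 234 and 2069; their part in the levels of the 5 genes was not tested. Of the mesenchymal types, the 12 alveolar myofibroblast markers summed to 1103 and 1256 CPM in cluster 19 and 1030 and 1129 in cluster 20. The 14 adventitial fibroblast markers summed to 3027 and 2685 and to 3302 and 2907. For the 11 smooth muscle markers the sums were 1118 and 956 and 1168 and 952, and for the 12 pericyte markers 333 and 353 and 321 and 364. Their part in the levels of the 5 genes was also not tested. Mitochondrial UMIs made up 2.73% and 2.51% in cluster 19 and 2.60% and 2.51% in cluster 20.

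The levels of the 5 genes across all 46 cluster sums (23 clusters in each library, sharing library and depth) did not follow 1 pattern: Pearson's r of log2(CPM + 1) between pairs lay from 0.12 (Upk1b and Spon2) to 0.74 (Sod3 and Spon2). Of 7377 genes, those most like Inmt were the amino acid transporter gene Slc7a10 (r = 0.90), the retinol acyltransferase gene Lrat (0.89) and Slc36a2 (0.88), with ratios in clusters 14, 19 and 20 of 2.11, 2.91 and 1.15. Upk1b was most like the complement gene C2 (0.83), also a leading gene of cluster 17, Npnt (0.80) and Gpc3 (0.80), with ratios of 1.69, 1.48 and 0.639. Most like Sod3 were Mamdc2 (0.93), Loxl1 (0.93) and Wscd2 (0.92), with ratios of 2.77, 1.17 and 1.56. Spon2 was most like Dkk3 (0.94), Ltbp2 (0.94) and Hoxb6 (0.94), with highest levels in cluster 21 and ratios of 1.09, 0.737 and 1.39. For C1qtnf3 the nearest were Dcn (0.83), Mfap5 (0.83) and Abca8a (0.82), all highest in cluster 18, with ratios of 1.78, 1.05 and 2.31. A gene's likeness over all clusters was thus found with ratios between the libraries from 0.639 (Gpc3) to 2.91 (Lrat).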

How the data were processed

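Lung cells of 1 IgG and 1 5E1 library were profiled with the 10x Genomics 3' v2 chemistry. The authors deposited raw counts, UMIs per gene and cell barcode, made with Cell Ranger 3.1.1 against mm10 per the submitters' processing notes, and a table of the cells they kept with cluster numbers, whose header is shifted by a column. The sources used here do not state the strand setting or how doublets were treated. No doublet caller was run, and cells with markers of another type were left out as an alternative. Counts of the kept cells (13509 and 9454 of 15021 and 10519 barcodes) were summed per library and cluster with numpy 2.4.6 and pandas 2.3.3 and divided by the summed UMIs; cluster totals set the precision. Poisson, conditional binomial and Clopper-Pearson intervals (scipy 1.17.1, 95%) cover counting error only; quotients of ratios have a normal interval. The interval code was checked on simulated data. With 1 library per condition there is no test and no p-value. Genes needed 20 UMIs in both libraries together; a cell is thinned by drawing 1000 of its UMIs. Likeness used log2(CPM + 1), and list medians had 0.5 UMI added. A cluster was named when at least 3 of its 10 leading genes (CPM plus 5 over the other clusters) came from 1 marker list and no other list had 2; this rule was set with the data seen. The 5 genes and the lists were chosen with earlier results of these data known. Some listed genes are not reported here and enter no list count. The text names the 5 genes in every cluster, up to 3 highest and 3 lowest genes of each list, the 3 genes most like each of the 5, and the 10 genes of highest ratio with at least 200 UMIs and 50 CPM. Columns of no known sample numbered 0. Alternatives were median-ratio scaling, other cluster weights, thinning, means over cells, filters on cells and division by sex marks.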

Additional observations from a re-analysis of the deposited data

Results flagged for a closer look

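Inmt in adventitial fibroblast-like cluster 18 was lower with 5E1, a ratio of 0.490 (95% counting interval 0.342 to 0.691; 149 and 44 UMIs), while it was higher in clusters 19 and 20. The ratio was 0.178 (0.064 to 0.396; 6 UMIs) with the 5E1 cells that had Xist alone and 0.730 (0.449 to 1.14) with those that had a Y-linked UMI, whose interval held 1. Spon2 was likewise higher in clusters 19 and 20 and lower in cluster 12 (ratio 0.626), smooth muscle-like cluster 16 (0.695), mesothelial-like cluster 17 (0.580) and myofibroblast-like cluster 23 (0.745). These opposite directions rest on 1 library per condition, and the difference between clusters was not tested over samples. In the barcodes the authors left out of their cell table, Upk1b was at 6.69 CPM with IgG (15 UMIs) and 36.4 CPM with 5E1 (80 UMIs), a ratio of 5.44 (3.11 to 10.2), above its level in B cell-like cluster 4 of 0.729 and 2.88 CPM. The other genes in those barcodes had ratios of 1.08 (Inmt), 1.02 (Sod3), 0.782 (Spon2) and 1.31 (C1qtnf3), each with an interval that held 1.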

How the results depend on the processing

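No paired analysis was possible because each condition has 1 library, and no library could be left out. In clusters 14, 19 and 20 the ratios under the alternatives ran from 1.24 to 5.15 for Inmt, 2.75 to 5.07 for Upk1b, 2.38 to 4.15 for Sod3, 1.73 to 3.27 for Spon2 and 2.21 to 6.68 for C1qtnf3. The lowest for Inmt and Spon2 are cluster 14 alone, with intervals that held 1, and C1qtnf3 had too few UMIs there for a ratio. The values outside the counting interval of the main ratio follow, and the cause was not tested where none is named. Cluster 19 alone gave 3.70 for Inmt and 3.36 for Upk1b. Cluster 20 alone gave Inmt 2.90, Upk1b 3.01, Sod3 2.88, Spon2 2.28 and C1qtnf3 2.21, and cluster 14 alone gave Inmt 1.24, Sod3 2.38 and Spon2 1.73. With the 3 clusters weighted alike the ratios were 2.52 (Inmt), 3.27 (Upk1b), 2.91 (Sod3), 2.36 (Spon2) and 2.34 (C1qtnf3), and with 5E1 clusters weighted by the UMIs of the IgG clusters, an alternative added after seeing the data, 3.34 (Inmt) and 3.31 (Upk1b). The mean over cells gave 4.08 for Inmt, and thinning to 1000 UMIs 5.07 for Upk1b. With 5E1 cells that had Xist alone the ratios were 2.60 (Inmt), 2.75 (Upk1b), 2.74 (Sod3) and 2.37 (Spon2), and with those that had Y-linked UMIs 5.15 (Inmt), 4.85 (Upk1b) and 3.23 (Spon2). Without cells with 2 mesothelial markers Inmt was at 3.89. Without cells with 2 markers of an immune, epithelial or endothelial list, which left 265 of 3338 cells, it was 4.76 for Inmt, 3.73 for Sod3, 3.27 for Spon2 and 6.68 for C1qtnf3; with 3 markers, added after seeing the data, Inmt was at 3.69. Cells without a tdTomato UMI, also added, gave Inmt 4.89, Sod3 4.15, Spon2 3.25 and C1qtnf3 4.83. In cluster 17, 5E1 cells with Xist alone gave 1.17 for Upk1b and turned C1qtnf3 from 1.44 to 0.494 (9 UMIs in 37 cells), and thinning gave 0.499 for Sod3 and 0.285 for Spon2. Genes at least 2-fold higher made up 1.35% of those with at least 100 UMIs, against 2.7% at 20 UMIs. Median-ratio scaling gave ratios within the counting interval for the 5 genes, and 3.19% of genes past 2-fold. Low counts limit C1qtnf3 and cluster 14 most.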

Other observations

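The cells were also divided within each library and cluster by whether they held a UMI of Gli1, Ptch1 or Hhip, a division chosen after the data were seen. Spon2 was lower in the cells with such a UMI in all 4 divisions: 87.4 against 112 CPM in cluster 19 with IgG (ratio 0.781, 0.678 to 0.901), 111 against 199 CPM in cluster 20 with IgG (0.557, 0.395 to 0.789), 208 against 296 CPM in cluster 19 with 5E1 (0.702, 0.543 to 0.895) and 231 against 314 CPM in cluster 20 with 5E1 (0.736, 0.555 to 0.961). Inmt was lower in cells with a target UMI in cluster 19, at 112 against 131 CPM with IgG (0.857, 0.754 to 0.975) and 367 against 448 CPM with 5E1 (0.820, 0.677 to 0.987). In cluster 20 it was higher in them, at 329.5 against 181 CPM with IgG (1.82, 1.35 to 2.49) and 1269 against 787 CPM with 5E1 (1.61, 1.43 to 1.82). Upk1b's interval held 1 in each division. C1qtnf3 in cluster 20 had a ratio of 5.40 (1.38 to 46.6; 31 and 2 UMIs) with IgG and 0.323 (0.116 to 0.721; 6 and 137 UMIs) with 5E1, and its interval held 1 in cluster 19 of both libraries. Sod3 was lower in cells with a target UMI in cluster 19 with 5E1 (0.794, 0.630 to 0.991), and its interval held 1 in the other divisions. Cells with a target UMI were deeper in each of the 4, for instance 4943 against 4130 median UMIs in cluster 19 with IgG.

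By the reporter, Inmt in cluster 19 was 1.24-fold higher in cells with a tdTomato UMI than in those without with IgG (1.07 to 1.43; 124 against 100.5 CPM) and 0.791 times as high with 5E1 (0.700 to 0.895; 399 against 504 CPM). In cluster 20 the same quotients were 0.797 (0.617 to 1.04) with IgG and 1.33 (1.21 to 1.47) with 5E1. Upk1b in cluster 19 with IgG was lower in the cells with a tdTomato UMI, at 24.5 against 39.1 CPM (0.627, 0.486 to 0.814). The quotients there were above 1 for Sod3 (1.31, 1.11 to 1.55), Spon2 (1.29, 1.10 to 1.52) and C1qtnf3 (1.51, 1.03 to 2.29). With 5E1, Sod3 in cluster 19 was at 0.836 (0.722 to 0.969). The intervals of Upk1b, Sod3, Spon2 and C1qtnf3 held 1 in all other divisions by the reporter.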
